A study of Homo sapiens with 6 samples.

Results

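The cytosolic ribosomal protein genes were followed in xenograft tumours with and without knockdown of versican. Members were the protein-coding genes of the deposited count table whose symbol is RPL or RPS with a number and an optional A or X, together with RPSA, RPLP0, RPLP1 and RPLP2. Kinases named RPS6K, paralogs with an L suffix and Y-linked forms were left out. The rule took 77 of 67026 genes, 46 of the large and 31 of the small subunit, without using any measured value.

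The tumours grew from the human prostate cancer line PC-3, transduced with lentiviral short hairpin RNAs. In the control group (shGFP) the hairpin targets GFP, and in the knockdown group (shVCAN) it targets VCAN, the gene of the matrix proteoglycan versican. Transduced cells were selected with puromycin at 2 µg/mL, and 1200000 cells in 0.1 mL of PBS and Matrigel were injected under the skin of male mice of the NSG strain, NOD.Cg-Prkdcscid Il2rgtm1Wjl/SzJ, aged 4 to 5 weeks, with tumours measured for 4 weeks. Both groups therefore carried a hairpin and went through selection, and the labels name 1 hairpin treatment per group. The protocol assigned the mice to 3 groups, of which 2 were analysed here. Each had 3 numbered xenografts, sequenced as paired reads of 150 bp, and the comparison asks which transcripts differ when versican is reduced. The mice lack T, B and natural killer cells but keep their own fibroblasts, vessels and myeloid cells, so a tumour holds host RNA beside that of PC-3. The labels number the xenografts without saying that each came from its own mouse, so p-values cover only the spread between these libraries.

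A ribosome is built from ribosomal RNA and about 1 copy of each ribosomal protein per subunit, so cells make these proteins in matched amounts. The messenger RNAs of ribosomal proteins are among the most abundant in dividing cells. Most of them begin with a C followed by a run of pyrimidines, the 5′ terminal oligopyrimidine (TOP) motif, through which mTORC1 signalling and the protein LARP1 set their translation and stability. The large subunit joins amino acids and holds the exit tunnel and the stalk that recruits elongation factors, and the small subunit reads the messenger RNA.

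Libraries held 11253058 to 13327617 counts, and levels are given as normalised read counts (CPM) on library sizes scaled by the trimmed mean of M values (TMM). VCAN fell from 10.6 ± 0.809 to 3.66 ± 1.19 CPM (mean ± SD, n = 3 tumours here and in all later values), with 104 to 133 counts in shGFP and 39 to 69 in shVCAN. On the log2 scale VCAN changed by −1.54 (SE 0.207; adjusted p = 4.59e-07 in the quasi-likelihood fit of edgeR), and an exact two-sided permutation test gave p = 0.1, the smallest that 3 against 3 tumours allow. The markers KRT8, KRT18, KRT19 and EPCAM of the epithelial line summed to 1281 to 1420 CPM in shGFP and 1129 to 1172 CPM in shVCAN. KLK3, which PC-3 lacks, was at 0 in every library.

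Ribosomal protein genes of both subunits were higher in the shVCAN tumours. A gene was called at a Benjamini-Hochberg adjusted p under 0.05 in the edgeR quasi-likelihood fit of all 16254 genes that passed the count filter. Of the 73 members that passed it, 64 were called higher, none lower and 9 were not called. Among all tested genes 19.2% were called higher and 21.1% lower, 40.3% in either direction. The large subunit had 39 of 45 tested members higher and the small subunit 25 of 28. The median log2 fold change was 0.29 over the large and 0.35 over the small subunit members, against 0.0014 over all tested genes. The 3 shVCAN values lay above all 3 shGFP values in 65 members, 40 large and 25 small, and below them in none. That pattern was present in 23.9% of all tested genes upward and 24.8% downward. A rise of at least 1.5-fold was reached by 7 members, 3 large and 4 small, where 6.88% of all tested genes were called higher by that much. Most members that rose thus did so by less than 1.5-fold.

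**Figure D1:**
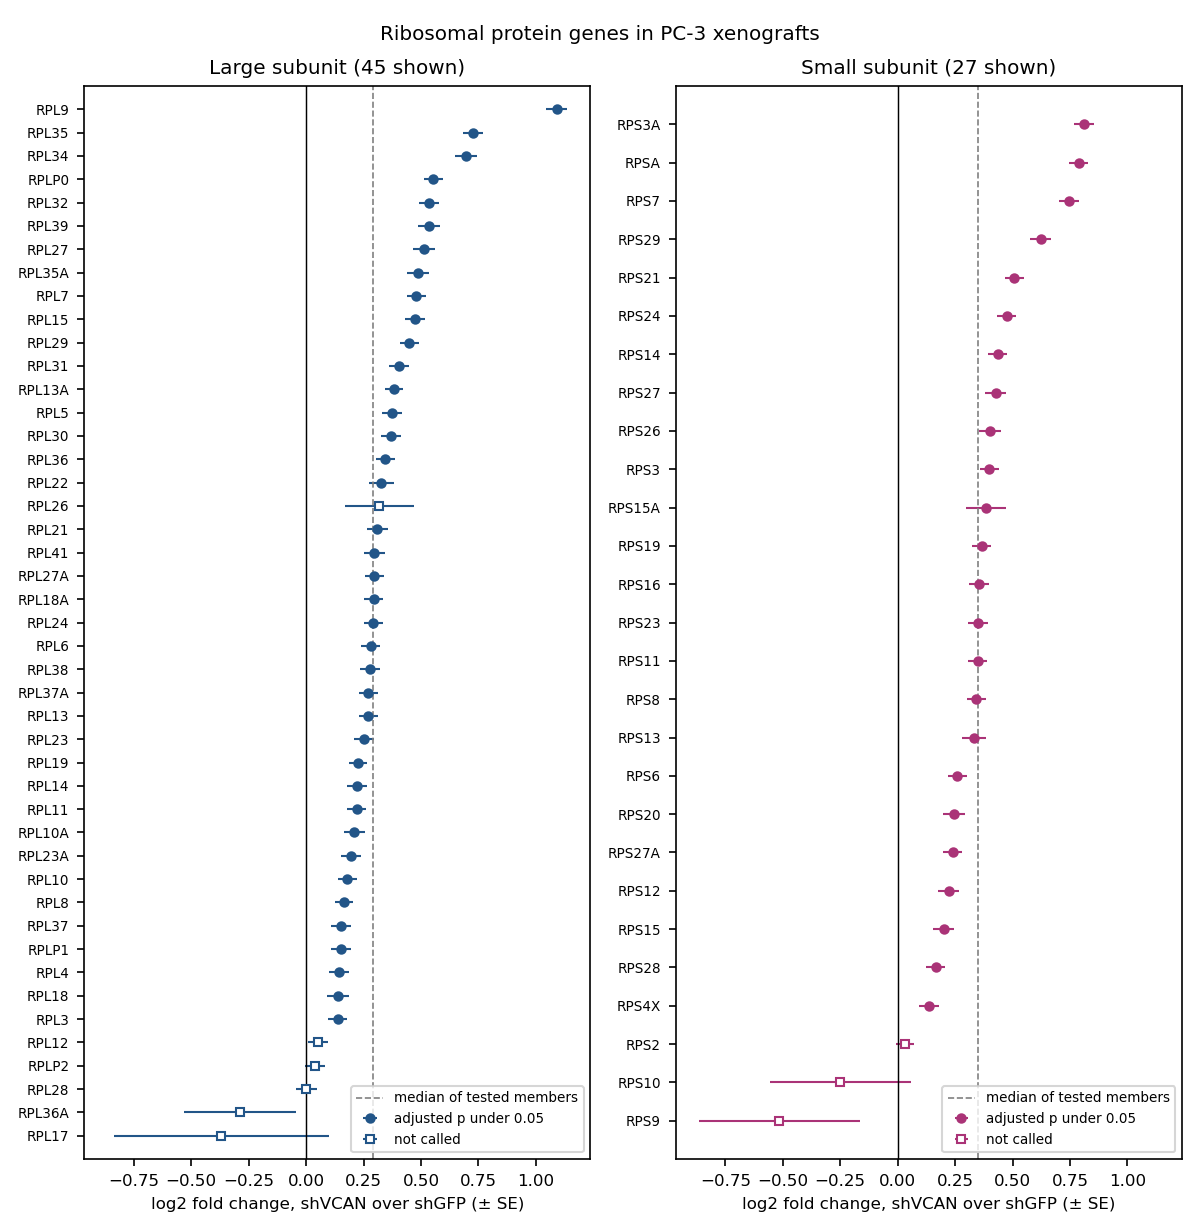
Log2 fold change (shVCAN over shGFP, ± SE) of the tested ribosomal protein genes reported here, large subunit left and small subunit right, ordered by size; filled points were called and open points were not, and the dashed line is the subunit's median. RPL9 stands at the top of the large subunit at 1.09, most members lie between 0.1 and 0.6, and the 4 members with negative values (RPS9, RPL17, RPL36A and RPS10) have wide errors.

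RPL9, a large subunit protein near the stalk, differed most. The gene (ENSG00000163682.16) lies on chromosome 4, 39452521 to 39458949 on the minus strand of GRCh38, as annotated by GENCODE 29, which also gives the gene positions below. Its level was 371, 395 and 379 CPM in the shGFP tumours and 789, 804 and 846 CPM in the shVCAN tumours. The lowest shVCAN value lay far above the highest shGFP value. RPL9 rose 2.13-fold (log2 fold change 1.09, SE 0.0459, edgeR quasi-likelihood adjusted p = 8.64e-18) and was the only member past 2-fold. The next in the large subunit was RPL35, a protein beside the mouth of the exit tunnel. RPL35 stood at 566, 561 and 570.3 CPM in shGFP and 959, 933 and 913 CPM in shVCAN, a log2 fold change of 0.72 (SE 0.0428). RPL34 had 279, 271 and 276 CPM against 446, 426 and 465 CPM, a log2 fold change of 0.70 (SE 0.0483). RPL32 and the tunnel protein RPL39 followed, both at 0.53 (SE 0.0425 and 0.0479). In all 4 the groups did not overlap, and edgeR quasi-likelihood adjusted p-values were at most 2.07e-10.

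In the small subunit the same place was taken by RPS3A, RPSA and RPS7. RPS3A (ENSG00000145425.10, chromosome 4, 151099573 to 151104652) sits on the platform near the exit of the messenger RNA, and its level was 648, 628 and 603 CPM in shGFP against 1079, 1082 and 1136 CPM in shVCAN (log2 fold change 0.81, SE 0.044). RPSA (ENSG00000168028.14, chromosome 3, 39406689 to 39412542) is also known as the precursor of a laminin receptor at the cell surface. It had 987, 1006 and 969 CPM in shGFP and 1668, 1727 and 1719 CPM in shVCAN (log2 fold change 0.79, SE 0.0408). RPS7, a protein that can bind MDM2 and so protect p53, had 527, 523 and 521 CPM against 872, 851 and 909 CPM (log2 fold change 0.75, SE 0.0436). The groups were apart in all 3, with edgeR quasi-likelihood adjusted p-values of 2.31e-15, 7.64e-16 and 1.49e-14. RPS29, a small zinc-binding protein of the small subunit head, rose from 533 ± 20.2 to 820.5 ± 36.3 CPM (log2 fold change 0.62). RPS21 rose from 1063 ± 27.3 to 1513 ± 24.6 CPM (0.51).

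**Figure D2:**
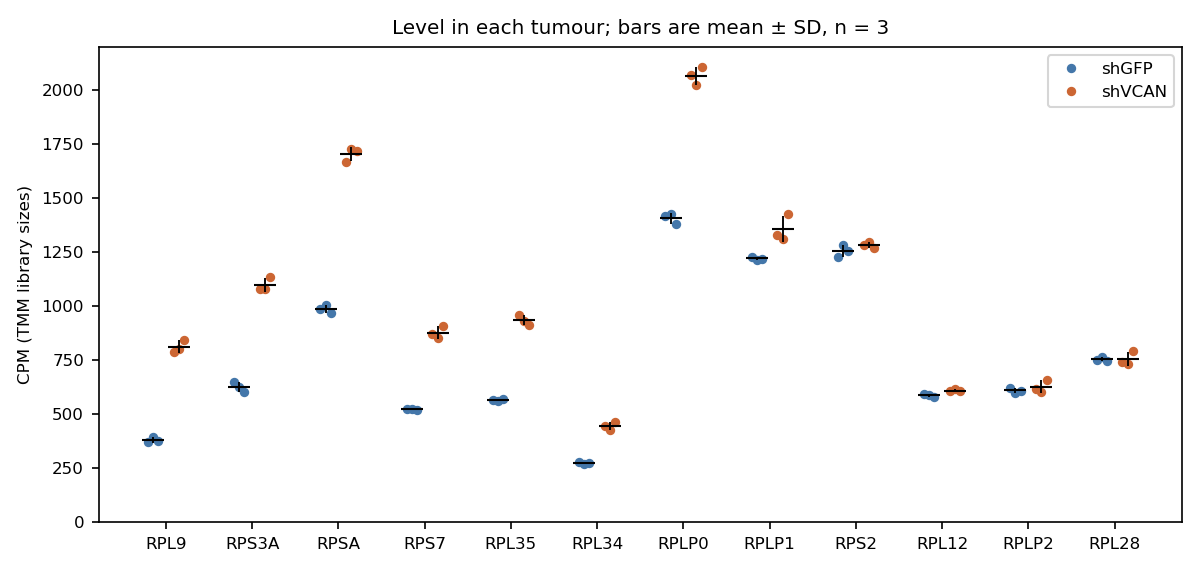
Level of 12 ribosomal protein genes in each tumour in CPM of TMM library sizes (points), with mean ± SD (bars, n = 3 per group). The tumours of the groups are well apart for RPL9, RPS3A, RPSA, RPS7, RPL35, RPL34 and RPLP0, closer for RPLP1 and RPL12, and intermixed for RPS2, RPLP2 and RPL28.

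The starts of the messenger RNAs of some members that rose and of some that were not called are shown because the TOP motif lies there. The windows hold the 15 bases before and the 15 from the annotated start, 5′ to 3′ on the gene's strand, from RefSeq on GRCh38.p14. Capitals mark an unbroken run of pyrimidines that begins at the start base. RPL34 has another annotated start, not printed here, with a run of only 3 pyrimidines.
RPL9 (chr4:39458908-39458937, minus strand): gtacgtaatgacgacagacgttctttcttt
RPS3A (chr4:151099613-151099642, plus strand): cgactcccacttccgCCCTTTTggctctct
RPSA (chr3:39406705-39406734, plus strand): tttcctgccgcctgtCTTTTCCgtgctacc
RPS7 (chr2:3575245-3575274, plus strand): gtttccgccctcctcCTCgcgctgtttccg
RPL35 (chr9:124861943-124861972, minus strand): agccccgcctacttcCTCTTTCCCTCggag
RPL34 (chr4:108620561-108620590, plus strand): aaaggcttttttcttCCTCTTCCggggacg
RPLP0 (chr12:120201097-120201126, minus strand): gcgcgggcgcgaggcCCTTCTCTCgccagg
RPL12 (chr9:127451392-127451421, minus strand): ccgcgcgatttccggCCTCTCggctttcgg
RPLP2 (chr11:809952-809981, plus strand): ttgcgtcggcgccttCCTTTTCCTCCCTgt
RPL28 (chr19:55385917-55385946, plus strand): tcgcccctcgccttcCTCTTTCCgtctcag

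A C at the start base followed by at least 4 more pyrimidines was found on the gene's strand in 46 of the 77 annotated start windows of the 62 members with an entry (59.7%), against 4.07% of all 35116 windows in the table. It is present in RPSA and RPL35, which rose, and equally in RPL12, RPLP2 and RPL28, which were not called. RPL9, with the largest rise, has no such run at its annotated start. Among tested members with an entry, 43 had the run at 1 start or more, of which 36 were called higher with a median log2 fold change of 0.32. Of the 16 without it, 15 were called higher with a median of 0.25. The start used in these tumours was not measured, so an annotated start can differ from the one the cells used.

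Upstream, the 6 letters CGGAAG, the core that ETS family factors bind, stood on either strand in 59.7% of the member windows (250 bases before to 50 after the start) and in 19.5% of all windows. RPS3A and RPL28 are shown because RPS3A is near the top of the order and RPL28 near its bottom among well-counted members. The 100 bases before the start are given 5′ to 3′ on the gene's strand, with CGGAAG or its complement CTTCCG in capitals.
RPS3A (chr4:151099528-151099627, plus strand): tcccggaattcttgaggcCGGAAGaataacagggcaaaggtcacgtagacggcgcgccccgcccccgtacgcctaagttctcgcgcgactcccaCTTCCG
RPL28 (chr19:55385832-55385931, plus strand): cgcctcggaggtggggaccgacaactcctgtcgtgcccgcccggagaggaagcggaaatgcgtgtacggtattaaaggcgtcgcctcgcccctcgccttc
RPS3A holds the letters near both ends of its stretch and RPL28 holds none there. The pair does not stand for the rest, since RPL9, RPS7, RPL35 and RPLP0, which rose, hold none in these 100 bases either. The TATA box TATAAA, searched on both strands, was in 6.49% of member windows and 11.5% of all windows. The GC box GGGCGG, which can share its last 3 letters with CGGAAG, was in 54.5% of member windows and 44.9% of all windows.

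The stalk of the large subunit did not move as a block. RPLP0, the protein that anchors the acidic stalk proteins, had 1416, 1426 and 1379.5 CPM in shGFP and 2068, 2024 and 2107 CPM in shVCAN, and rose by 0.55 on the log2 scale (SE 0.0398, edgeR quasi-likelihood adjusted p = 1.53e-12). Its groups did not overlap. RPLP1, which RPLP0 carries in a pair with RPLP2, had 1229, 1215 and 1220.1 CPM against 1331, 1312 and 1425 CPM (log2 fold change 0.15, SE 0.0421, edgeR quasi-likelihood adjusted p = 0.00456). Without shVCAN tumour 3, its highest, the log2 fold change of RPLP1 was 0.11 and the call was lost. RPLP2 had 623, 599.9 and 609 CPM against 618, 603 and 661 CPM, so the groups overlapped (log2 fold change 0.04, 95% interval −0.05 to 0.13, edgeR quasi-likelihood adjusted p = 0.534). RPL12, at the foot of the stalk, had 594, 590.4 and 581 CPM against 608, 616 and 606 CPM, apart by a small step (log2 fold change 0.05, 95% interval −0.03 to 0.14, edgeR quasi-likelihood adjusted p = 0.362). Those intervals lie below the estimate for RPLP0, although the difference between these genes was not itself tested.

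The other functional neighbourhoods were counted in the same way. RPL5 and RPL11, which travel with the smallest ribosomal RNA and bind MDM2 when ribosome assembly fails, were both higher. RPL5 rose from 783 ± 20.6 to 1015 ± 16 CPM and RPL11 from 654 ± 15.5 to 762 ± 14 CPM, but RPL11 was not called with either of the offsets for length and GC content given below (−0.0061 and 0.088). Of 9 proteins around the exit tunnel 7 were higher, with a median log2 fold change of 0.32, and RPL17 and RPL26 were not called. With either offset 5 of them were higher. At the messenger RNA exit RPS14, RPS26 and RPS28 were all higher (median 0.40), but RPS28 was not called with either offset (0.025 and −0.085). At the entry RPS3 was higher by 0.40, while RPS2 was not called. RPS2 had 1228, 1283 and 1256 CPM against 1282, 1299.6 and 1270.1 CPM, so the groups overlapped (log2 fold change 0.03, 95% interval −0.05 to 0.11). Of the tRNA-contacting proteins RPS15, RPS16 and RPS23 were higher (median 0.35) and RPS18 was not tested. With either offset RPS15 was not called. Mutations in 15 listed members cause Diamond-Blackfan anaemia, a failure of red cell production from a shortage of one ribosomal protein. Of the 14 tested among them 12 were higher with a median of 0.41, and RPS10 and RPL26 were not called. With either offset 10 of the 14 were higher.

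RPL28 (ENSG00000108107.15, chromosome 19, 55385345 to 55403250, plus strand), a large subunit protein, had the same mean in both groups, 756 CPM. Its level was 754, 765 and 748 CPM in shGFP and 744, 733 and 793 CPM in shVCAN. The values were intermixed, with a fitted log2 value of 0.0014 (SE 0.0438, 95% interval −0.08 to 0.09, edgeR quasi-likelihood adjusted p = 0.984). RPL28, RPLP2, RPL12 and RPS2 were the 4 members with ample counts that were not called without an offset. With the offsets described below RPL28 was called in opposite directions, higher with exonic length (0.21) and lower with coding length (−0.14).

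Compared per kilobase of coding length, the highest large subunit levels were those of RPL41, the shortest ribosomal protein, RPL37A and RPLP1. RPL41 had 8568 CPM per kilobase in shGFP and 10531 in shVCAN, RPL37A 4148 and 5004, and RPLP1 3571 and 3965. In the small subunit RPS24 led with 6519 and 9056 CPM per kilobase, followed by RPS21 (4271 and 6075) and RPS28 (3298 and 3698). All 6 were called higher, with log2 fold changes in CPM from 0.15 in RPLP1 to 0.51 in RPS21. RPS24, at 2601 ± 58.6 CPM in shGFP and 3613 ± 181 CPM in shVCAN, was also the most abundant member in CPM. Members filled 6 of the 50 highest places by CPM in shGFP and 12 in shVCAN, and 51 and 61 of the 200 highest.

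A set of 9 members had fewer than 600 counts in every library and says little about the cells. RPS18, RPL7A and RPS25 had at most 1 count in any library and were not tested. RPL7A and RPS25 were at 0 in all 6 libraries. The protein-coding genes within 30 kb of RPS18 and RPL7A, such as TAPBP and SURF4, were also at 0 to 3 counts in every library. RPS10, RPL17, RPS9, RPL36A and RPL26 were tested at 0.889 to 12.6 CPM by group mean and not called. Their log2 fold changes were −0.25 (SE 0.307), −0.37 (SE 0.469), −0.51 (SE 0.352), −0.29 (SE 0.244) and 0.32 (SE 0.15). Without shGFP tumour 2 RPL26 was called, at 0.46. RPL17 shared 35.3% of its exonic bases with other annotated genes and RPS10 39.4%, among them readthrough genes that join RPL17 or RPS10 to the next gene and had 0 counts. In shGFP 90.6% of the counts of RPL17 with its pseudogenes were in pseudogene rows. Levels this low for genes that every dividing cell uses are values of the table, and the sources used here do not say how reads shared with other copies were counted.

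Pseudogene rows held a small share of the counts. The table held 1594 rows named as pseudogenes of members, and these took 0.085% ± 0.00261 of the counts in shGFP and 0.101% ± 0.00309 in shVCAN. The highest shares of family counts there in shGFP among members with ample counts were those of RPL13 (14.9%), RPS2 (10.8%), RPS27 (8.99%), RPL41 (8.26%) and RPLP0 (6.35%). With pseudogene rows added to the parent, RPL13 had a log2 fold change of 0.26 in place of 0.27 and RPLP0 had a log2 fold change of 0.51, and 39 large and 25 small subunit members were higher, where 19.3% of all genes were.

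Ribosomal protein genes held 5.08% ± 0.0342 of all counts in shGFP and 7.28% ± 0.0824 in shVCAN. By tumour the share was 5.07%, 5.12% and 5.05% in shGFP and 7.36%, 7.20% and 7.27% in shVCAN, so the groups lay apart. The large subunit went from 3.19% ± 0.0301 to 4.47% ± 0.0555 and the small from 1.89% ± 0.00429 to 2.81% ± 0.0270. The 13 messenger RNAs of the mitochondrial genome moved the other way, from 14.9% ± 1.43 to 6.82% ± 0.701, and all 13 were called lower. Of the counts outside the mitochondrial genome, ribosomal protein genes held 6.21% ± 0.0933 in shGFP and 7.98% ± 0.12 in shVCAN, still apart. In bulk tumours fewer cells of a type and less RNA per cell cannot be told apart.

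**Figure D3:**
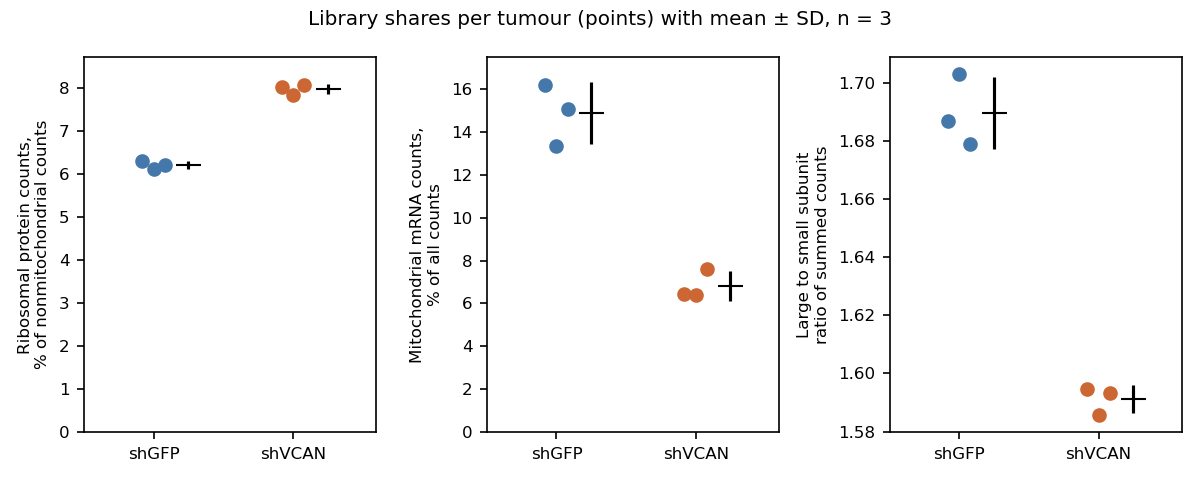
Values per tumour (points) with mean ± SD (bars, n = 3 per group) of the ribosomal protein share of nonmitochondrial counts in percent, the mitochondrial messenger RNA share of all counts in percent, and the ratio of summed large to small subunit counts (this axis does not start at 0). The groups are apart in each panel, with shVCAN higher in the first and lower in the other 2.

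The summed counts of the large and small subunit were also set against each other. The ratio of summed large to small subunit counts was 1.69, 1.70 and 1.68 in the shGFP tumours and 1.59, 1.59 and 1.59 in the shVCAN tumours, with no overlap. On the log2 scale it went from 0.76 ± 0.0105 to 0.67 ± 0.00449, a difference of −0.086. Medians over members of log2 CPM gave −0.071. Leaving out each tumour in turn gave −0.091 to −0.081. The sum is led by the most abundant members, and no test was made of this score. The medians of the fitted log2 fold changes were 0.29 for the large and 0.35 for the small subunit without an offset. They were 0.17 and 0.18 with the exonic length and GC offset described below, and 0.14 and 0.20 with the coding length offset. The small subunit median was the higher in each, by little with the exonic length offset.

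Marker sums of fibroblasts, endothelial cells and macrophages were lower in shVCAN, with no overlap, while the skeletal muscle and erythroid sums overlapped. The epithelial marker sum of PC-3 given above was also lower with no overlap. KRT8, KRT18 and EPCAM were called lower, and KRT19 was not called. COL1A1 led the fibroblast sum (619 and 300 CPM by mean in shGFP and shVCAN). DCN and LUM were near the floor, and the mean of PDGFRB was higher in shVCAN (0.542 and 0.742 CPM). KDR and PECAM1 led the endothelial sum, with VWF and CLDN5 near the floor. Which cells these reads came from was not tested. Summed over 7 fibroblast and pericyte genes the level was 792 to 895 CPM in shGFP and 353 to 451 CPM in shVCAN, and over 7 endothelial genes 87.5 to 89.7 against 48.4 to 52.9 CPM. The 7 macrophage genes summed to 2.75 to 5.57 against 1.31 to 1.97 CPM, with CD163 and AIF1 at 0 in every library. CD14, called lower, and CSF1R, not called, led this sum at low levels. The means of CD68, MRC1 and PTPRC, near the floor, were higher in shVCAN. The 6 skeletal muscle genes summed to 180.3 to 310.3 against 129 to 197 CPM with TNNT3 at 0, and the 4 erythroid genes to at most 0.279 CPM with ALAS2 at 0. Ribosomal protein genes are used by all these cells, and the part of cell mixture and of the mitochondrial share in their rise was not tested. The nuclear RNA MALAT1 was not called (794.8 ± 69.9 and 850.3 ± 76.5 CPM), while NEAT1 was lower (log2 fold change −0.21).

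Short genes were called higher more often than long ones. Over 13168 genes the Spearman correlation of log2 fold change with coding length was −0.28, as a description across genes of the same 6 libraries. Other protein-coding genes with up to 500 coding bases had a median log2 fold change of 0.29 (1062 genes, 47.1% called higher), close to the 0.33 of the 44 tested members of that size, 38 of them higher. From 500 to 1000 bases the other 2891 genes had a median of 0.09 with 30.9% higher, and the 27 members there a median of 0.28 with 24 higher. Abundance gave another picture. Of 356 other protein-coding genes at 300 CPM or more in shGFP, 85 were higher and 175 lower, with a median of −0.11. Of the 127 among them with at most 1000 coding bases, 49 were higher and 44 lower, with a median of 0.01. Both of these sets include messenger RNAs of the mitochondrial genome, which were called lower, such as MT-ND4L among the 127. The counts and medians were not computed without them. Within the 68 members with ample counts, the log2 fold change had a Spearman correlation of −0.12 with coding length, −0.40 with annotated transcript length and −0.23 with GC content.

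**Figure D4:**
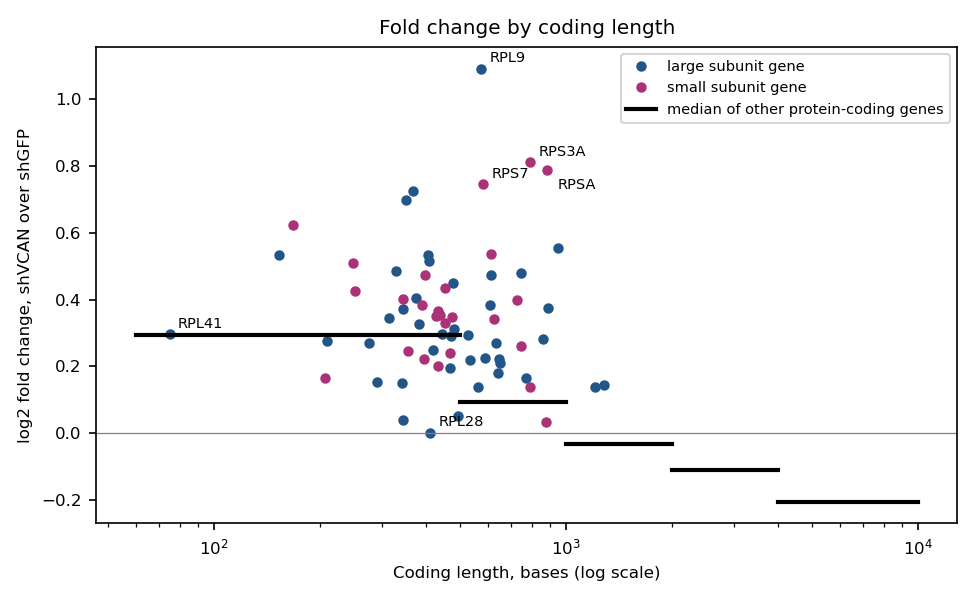
Log2 fold change (shVCAN over shGFP) of the 68 ribosomal protein genes with ample counts against coding length in bases (log axis), with bars at the median of the other tested protein-coding genes in each length class. Up to 500 bases the members spread around the bar at 0.29; from 500 to 1000 bases most lie above the bar at 0.09, with RPL9, RPS3A, RPSA and RPS7 highest.

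When each library's trend with length and GC content was taken out by an offset, the rise shrank and the calls at the lower end changed. Exonic length here is the length of 1 annotated transcript per gene, which is 7686 bases for RPL37, 7072 for RPL14 and 4796 for RPL28. With the offset for exonic length and GC content 45 members were higher, 3 lower (RPL12, RPLP2 and RPS2) and 25 not called. Among all genes 18.8% were higher and 18.5% lower. The medians were then 0.17 for the large and 0.18 for the small subunit. With coding length in place of exonic length 47 were higher, 3 lower (RPL37, RPLP2 and RPL28) and 23 not called. Among all genes 20.4% were then higher and 18.9% lower. The medians were 0.14 for the large and 0.20 for the small subunit. RPL37 was called higher without an offset (0.15) and lower with this one (−0.15). Without an offset and with both offsets alike, 38 members were higher, among them RPL9, RPS3A, RPSA, RPS7, RPL35, RPL34 and RPLP0. RPL9 had log2 fold changes of 0.76 and 0.90 with the 2 offsets, and RPSA 0.59 and 0.77. RPLP2 was the only member lower with both, at −0.11 and −0.13. RPL41, RPL37A and RPS28, short genes of high level per length, had values of −0.097, −0.010 and −0.085 with the coding length offset and were not called. The length of the RNA fragments in each library was not measured here, so the part of library length bias in the rise was not tested. Scaling by library size alone moved the median of all genes to 0.17, and then 43 large and 26 small subunit members were higher, where 32.2% of all genes were higher and 11.6% lower.

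**Figure D5:**
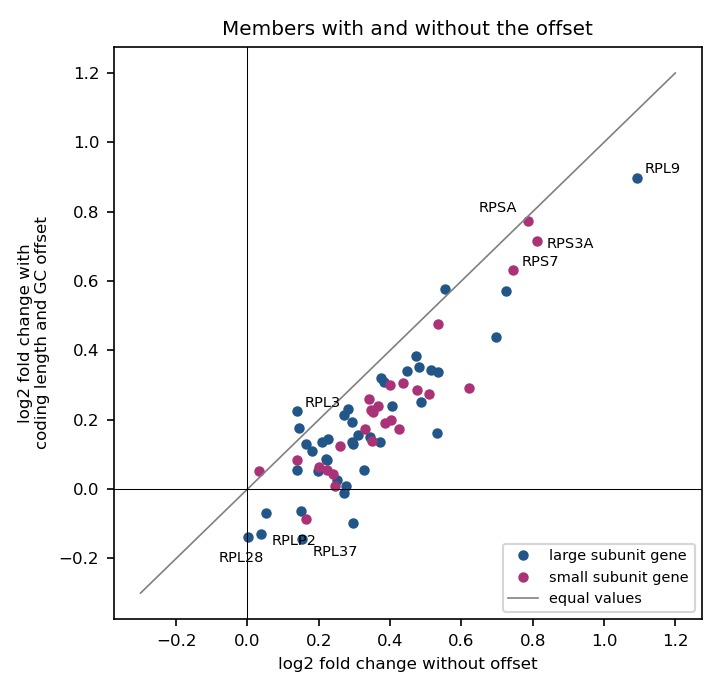
Log2 fold change of each of the 68 ribosomal protein genes with ample counts without an offset (x axis) and with the coding length and GC offset (y axis); the grey line marks equal values. Most points lie below the line, RPL9, RPS3A, RPSA and RPS7 stay highest, and RPL28, RPLP2 and RPL37 lie below 0.

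The other parts of the ribosome and its paralogs were read beside the members. FAU, which encodes a small subunit protein fused to a ubiquitin-like one, rose from 209.8 ± 5.83 to 263 ± 10.7 CPM. RACK1, a scaffold on the small subunit head, had 869 ± 31.8 and 899 ± 13.8 CPM and was not called. Of 6 tested L-suffixed paralogs 5 were higher, beside 19.2% of all tested genes. RPL26L1 rose from 45.2 ± 2.14 to 79.9 ± 0.358 CPM (log2 fold change 0.82), RPL39L by 0.72 and RPS27L by 0.43. With the coding length offset 2 were higher and 1 lower, the median was 0.14 in place of 0.44, and RPS27L was not called (0.11).

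Genes of the same translation programme outside the ribosome were split. Of 15 tested TOP-class translation genes 9 were higher and 3 lower (median 0.22), beside 19.2% and 21.1% of all tested genes. EIF3E, an initiation factor subunit, rose by 0.60, the histone chaperone NAP1L1 by 0.49, and nucleophosmin (NPM1), which helps to assemble and export ribosomes, by 0.41. The elongation factor EEF2 fell from 1168 ± 38.9 to 905 ± 17.2 CPM, the poly(A)-binding protein PABPC1 from 1084 ± 22.0 to 859 ± 11 CPM, and the initiation factor EIF4B from 368 ± 8.17 to 308 ± 10.9 CPM. The messenger RNAs of these 3 are known to carry TOP starts, as those of ribosomal proteins do.

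For the lists that follow, 19.2% of all tested genes were called higher and 21.1% lower without an offset. With the exonic length offset these shares were 18.8% and 18.5%, and with the coding length offset 20.4% and 18.9%. Of 24 tested ribosome assembly genes 8 were higher and none lower (median 0.13), among them the guide RNA partners NOP56 (0.34), NOP10 (0.40) and NHP2 (0.37). The exonic length offset gave 10 higher and 2 lower (median 0.11), and the coding length offset 11 and 0 (median 0.16). NOP10 was not called with the coding length offset (0.10). Of 10 genes of RNA polymerase I and its factors, which make ribosomal RNA, 1 was higher (POLR1D, 0.29) and 3 were lower (TAF1C −0.46, TAF1B −0.48 and POLR1A −0.21), with a median of −0.03. POLR1D was not called with either offset (0.037 and 0.090). Of 10 noncoding host genes of small nucleolar RNAs 5 were higher (median 0.24), among them SNHG6 (0.52), SNHG5 (0.38) and ZFAS1 (0.42). With the exonic length offset 2 were higher and 1 lower (median 0.11) and SNHG5 was not called (0.15), while with the coding length offset 5 were higher. Of 13 genes around mTORC1 2 were higher and 4 lower (median −0.12), near the 19.2% and 21.1% of all genes. With the exonic length offset 5 were higher and 5 lower (median 0.037), and with the coding length offset 4 and 4 (median 0.058). The translation repressor EIF4EBP1 rose by 0.52 and the mTORC1 activator RHEB by 0.35. DDIT4, an inhibitor of mTORC1, fell from 109.8 ± 9.43 to 38 ± 0.722 CPM (log2 fold change −1.53), LARP1, which binds TOP messenger RNAs, from 222 ± 8.31 to 157 ± 16.0 CPM (−0.50), and EIF4EBP2 from 179 ± 6.43 to 146 ± 4.59 CPM (−0.29). POLR1A was not called without shGFP tumour 2 or 3 or without shVCAN tumour 1 or 3 (−0.20 to −0.17), and was 0.087 and 0.029 with the offsets.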

How the data were processed

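RNA of 6 xenografts was sequenced, and the table the authors deposited holds raw gene counts, whole and not normalised. Per the submitters' processing notes, the tools were STAR, Trim Galore and DESeq2 and the build was hg38. Not given in the sources used here are the counting program, its annotation and strand setting, and whether mouse reads were removed. The 45 rows of second pseudoautosomal copies held 0 counts and were left out, and the 8454 genes without a symbol held at most 0.192% of a library. Symbols, coordinates and lengths came from a symbol table and GENCODE 29.

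The members and lists were chosen with earlier results of these data known. The test was edgeR's quasi-likelihood fit (edgeR 4.0.16, R 4.3.3; TMM, filterByExpr, group only, all 6 libraries), checked on simulated counts, and p-values were adjusted over all 16254 genes. SE is the log2 fold change divided by the square root of F. Genes named were VCAN, RPSA, RPLP0, RPLP1 and RPLP2, the 6 largest and 3 smallest log2 fold changes per subunit, members not called or not tested, the 3 highest per coding length in each subunit, and up to 3 called genes per list and direction. Members of role groups were named beside these. Some genes the rule names are not reported here. Alternatives were other scalings, filters, DESeq2 1.42.0, limma-voom (limma 3.58.1), pseudogene rows added, a length and GC offset (5 spline degrees of freedom, genes of at least 4 CPM), an adjusted p under 0.01, the replicate block and each tumour left out. The coding length offset and leaving out members under 600 counts were added after seeing the data. Depth gives counting error only, and amplified reads are not independent molecules.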

Additional observations from a re-analysis of the deposited data

How the results depend on the processing

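Direction and call held in 878 of the recomputed values of named genes, 17 changed sign, 16 lost and 7 gained a call. The length and GC offset gave 2 large and 1 small subunit genes lower and medians of 0.17 and 0.18, and the coding length offset 3 large subunit genes lower and medians of 0.14 and 0.20. Scaling by library size only gave 5228 genes higher and 1890 lower, medians of 0.46 and 0.52 (all genes 0.17), and 53 genes of the related lists higher and 5 lower, against 31 and 10. Upper quartile factors gave medians of 0.33 and 0.39. Outside the mitochondrial genome the share rose by 1.77 in place of 2.20 percentage points, and medians over members gave a log2 large to small ratio difference of −0.071. Leaving out each tumour gave 37 to 40 large and 24 to 25 small subunit genes higher, 0 lower, medians of 0.28 to 0.31 and 0.34 to 0.37, 2596 to 3086 of all genes higher and 2938 to 3438 lower, share differences of 2.15 to 2.24, ratio differences of −0.091 to −0.081 and VCAN at −1.83 to −1.36.

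Among the genes chosen for naming, values that changed sign with the exonic length offset were RPLP1 −0.058, RPLP2 −0.11, RPS2 −0.11, RPL12 −0.15 and POLR1A 0.087. With the coding length offset they were RPLP1 −0.062, RPLP2 −0.13, RPL28 −0.14, RPL37A −0.010, RPL41 −0.097, RPS28 −0.085, RPL12 −0.070 and POLR1A 0.029. Members outside that choice changed sign too, such as RPL11 (−0.0061) with the exonic length offset and RPL37 (0.15 to −0.15) with the coding length offset. RPL17 was 0.22 with pseudogene rows added. With each tumour left out in turn RPLP2 ran from −0.0012 to 0.067 and RPL28 from −0.034 to 0.025. The cause was not tested.

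The replicate numbers did not pair the tumours: same-numbered deviations correlated by 0.0176, 0.0158 and −0.0271. With the replicate block 39 large and 25 small subunit genes were higher, and no named gene changed its call. The members with few counts have wide intervals, such as −1.29 to 0.55 for RPL17, and why they have few was not tested.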

Other observations

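These values were chosen after the data were seen. The 3 tested members on chromosome 4 (RPL9, RPS3A and RPL34) were among the 6 members with the highest log2 fold changes, with a median of 0.81, while the other 584 tested genes of that chromosome had a median of 0.08, with 137 called higher and 100 lower. Chromosome 19 carried 12 tested members with a median of 0.32 against −0.05 over its other 1089 tested genes.

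The nuclear genes of mitochondrial ribosomal proteins, which build the separate ribosome of the mitochondrion, were also mostly higher. Of 72 tested, 55 were called higher and 1 lower in the edgeR quasi-likelihood fit, with a median log2 fold change of 0.37, where 19.2% and 21.1% of all genes were called. With the exonic and the coding length offset 40 and 45 were higher and 2 lower, with medians of 0.21 and 0.25. All 13 messenger RNAs that this ribosome translates were called lower, with a median of −1.40.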
